A study of Mus musculus with 12 samples.

Results

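The 51 genes described here carry the names of families of G protein and cyclic AMP signalling. These are receptors, G protein subunits, RGS proteins, adenylyl cyclases, phosphodiesterases, protein kinase A and its anchoring proteins, and proteins with the CREB stem. Some carry a stem without that role. P2rx4 is an ion channel, Pde4dip and Pde6d are no phosphodiesterases, and no classical CREB factor is included. The 51 genes were chosen by gene symbol, from fixed stems of the names of these families, and this rule uses no measured value. They are 51 of the 6786 genes with a single symbol on the array and are carried by 66 of its 15600 clones, with 11 genes on more than 1 clone and 40 on 1 clone. Amplified RNA of the renal medulla was hybridised to 2-colour arrays, for 3 mice under water restriction and 3 control mice in all possible pairs. There were 12 arrays, because 3 of the 9 pairs of mice (1 and 3, 2 and 1, and 3 and 2, the number of the water-restricted mouse given before that of the control mouse) were run in both dye orientations. Both groups are labelled only by water supply. The labels used here state no strain, sex or age and no length of the restriction.

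Urine is concentrated in the medulla, and cyclic AMP is the messenger through which vasopressin opens the collecting duct to water. The vasopressin V2 receptor activates the stimulatory G protein, adenylyl cyclase makes cyclic AMP, and protein kinase A then phosphorylates the water channel aquaporin-2 and acts on its gene through CREB-type factors. Prostaglandin E2, endothelin and extracellular nucleotides act on the same cells and limit that response. Inhibitory G proteins, RGS proteins, which speed the switching-off of G alpha subunits, and phosphodiesterases, which break down cyclic nucleotides, set how large the signal becomes and how long it lasts.

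Each array gave a log2 ratio of 2 mice, and a level for each of the 6 mice was fitted to these ratios, so that the 6 levels of a gene sum to 0. A difference is the mean level of the 3 water-restricted mice minus that of the 3 control mice. The numerator dye of the deposited ratio is not known here. If it is Alexa Fluor 546, a positive difference stands for a higher level under water restriction, and if it is 647, for a lower one. Values below are therefore placed on the positive or the negative side. A ratio gives no level of a gene by itself, so genes cannot be ordered by abundance, and the labelled tissue could not be checked by its markers. In whole tissue, fewer cells of a type and less RNA per cell cannot be told apart. Array medians over all spots lay between -0.04 and 0.06. Spot ratios had an SD of 0.515 to 0.764 on 11 arrays and 1.21 on the remaining array. That array paired mouse 2 of each group and is called the wide array here. Its median was 0.17 over the 6786 genes and 0.15 over the 51 genes. Duplicate spots of the clones of the 51 genes correlated at 0.260 to 0.790 within arrays.

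No gene of the 51 differed between water-restricted and control mice at an adjusted p under 0.05 (limma, Benjamini-Hochberg over all 6786 genes), and no gene of the whole array did (0 of 6786, 0%). At an unadjusted p under 0.05 there was 1 of the 51 genes, Pde8b, beside 4.97% of all genes. The 51 differences ran from -0.52 to 0.60 with a median of -0.02 (25 positive, 26 negative), and the median over all genes was 0.00. Their median size was 0.146 and their median standard error 0.192, beside 0.134 and 0.187 for all genes. The 95% interval lay within 1 log2 unit of 0 on either side for 48 of the 51 genes (94.1%) and for 90.2% of all genes. The exceptions were Akap17b (-1.05 to 0.55), Gna14 (-1.61 to 0.56) and P2rx4 (-1.15 to 2.35). The levels of the 3 water-restricted mice and the 3 control mice did not overlap for 4 genes (7.84%), Pde8b, Gng12, Pde8a and Prkar1a, beside 9.8% of all genes. After turning, a single gene, Pde8b, had the same sign on all 12 arrays, beside 2.05% of all genes. With the signs as deposited that gene was Pde2a, and Pde8b was not among such genes.

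**Figure D1:**
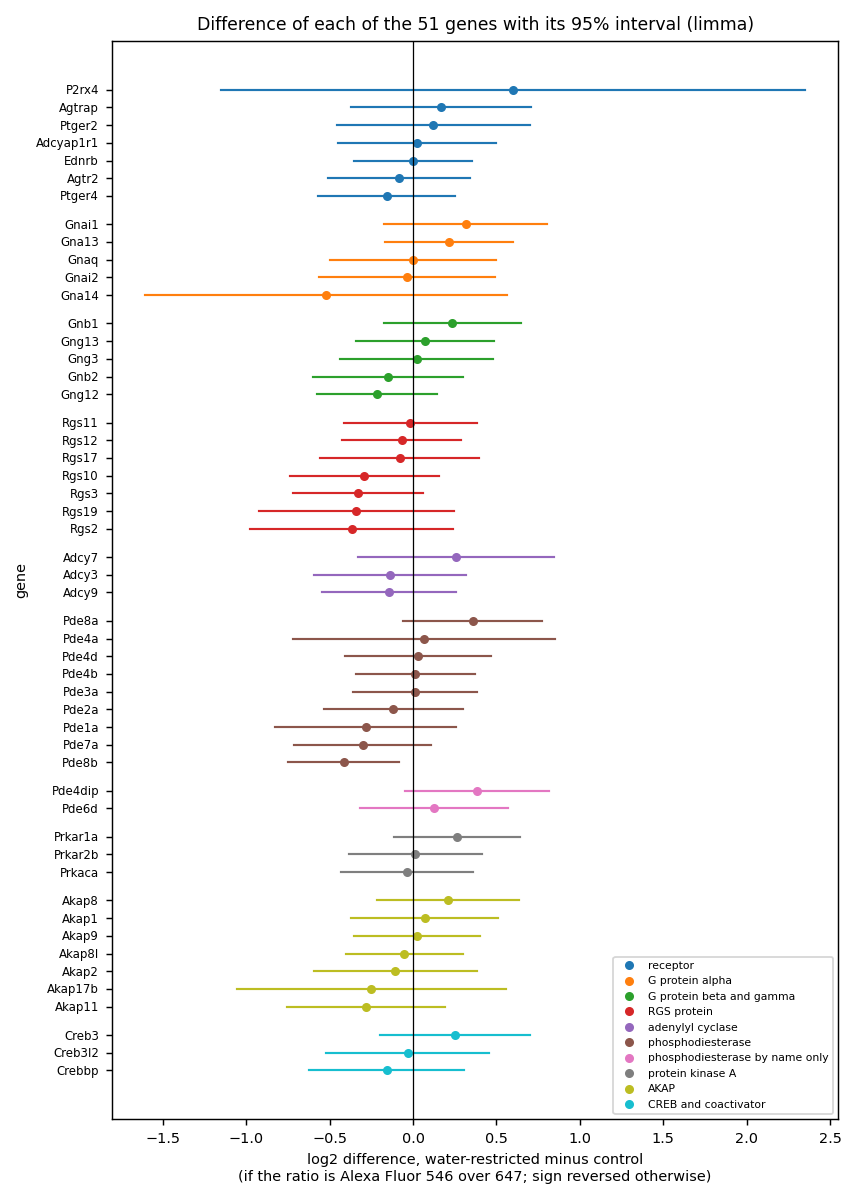
Log2 difference of each of the 51 genes, water-restricted minus control, on the horizontal axis, with its 95% interval from limma, genes grouped and coloured by role on the vertical axis. The intervals of all genes but Pde8b cross 0, all 7 RGS points lie left of 0, and P2rx4 has the widest interval.

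The arrays placed both Pde8 genes, which encode phosphodiesterases specific for cyclic AMP, on opposite sides. Pde8b had levels of -0.15, -0.18 and -0.29 in water-restricted mice 1 to 3, against 0.28, 0.26 and 0.09 in control mice 1 to 3. All 3 water-restricted mice lay on the negative side and all 3 control mice on the positive side. Its group means were -0.21 ± 0.08 in water-restricted mice and 0.21 ± 0.11 in control mice (SD, n = 3 each), a difference of -0.41 (SE 0.145, 95% interval -0.75 to -0.08, limma adjusted p = 0.836). Its 12 array values ran from -0.94 to -0.06. Pde8a had levels of -0.002, 0.23 and 0.31 in water-restricted mice, against -0.03, -0.47 and -0.04 in control mice. Water-restricted mouse 1 and control mice 1 and 3 lay close together, and the separation came from the other mice. The difference of Pde8a was 0.36 (SE 0.18, 95% interval -0.06 to 0.77, limma adjusted p = 0.996), and 9 of its 12 arrays were positive. Without control mouse 2 it was 0.21. With the signs as deposited both genes were negative, Pde8b at -0.12 and Pde8a at -0.26. When the 12 arrays were taken as replicates, which ignores that each mouse is on several arrays and so understates the error, Pde8b (limma adjusted p = 0.00776) and Pde8a (limma adjusted p = 0.0327) were the 2 genes of the 51 past the threshold, beside 6.9% of all genes.

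**Figure D2:**
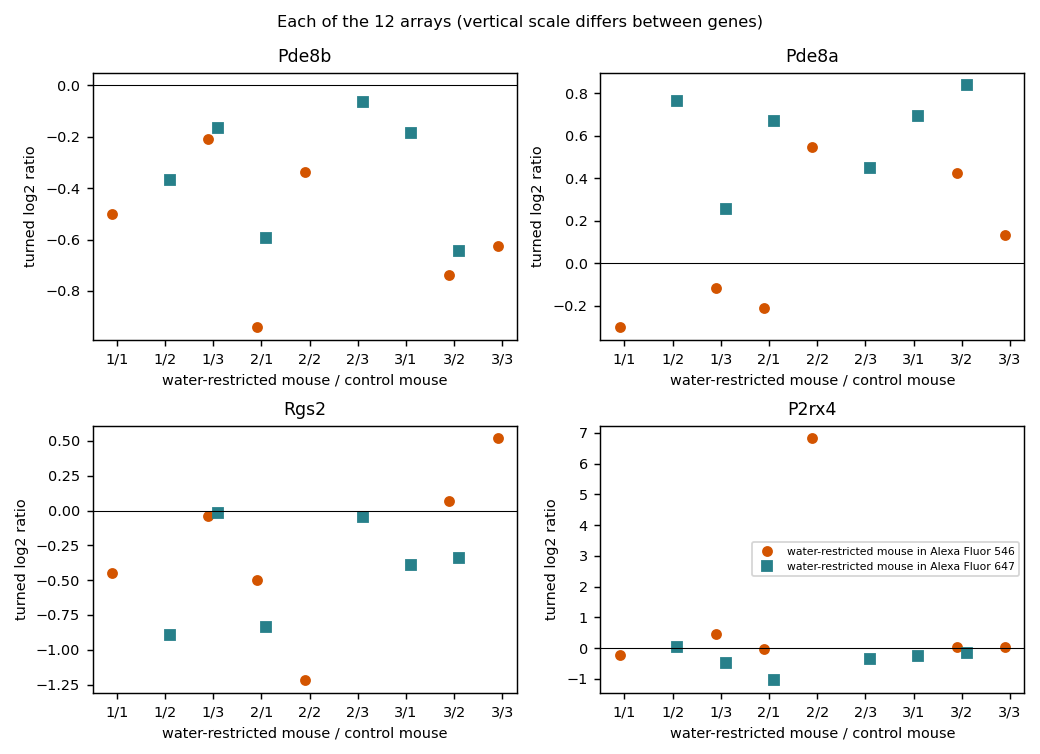
Turned log2 ratio on each of the 12 arrays (vertical axis, scale differing between genes) by pair of water-restricted and control mouse (horizontal axis), for Pde8b, Pde8a, Rgs2 and P2rx4, with circles for arrays that carried the water-restricted mouse in 546 and squares for those that carried it in 647. Pde8b is below 0 on all 12 arrays, and the square of Pde8a lies above its circle in each of the 3 dye-swapped pairs. P2rx4 lies between -1.05 and 0.47 except for 6.82 on the wide array (2/2).

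The promoters of 4 genes are shown because cyclic AMP acts on transcription through the CRE, the site bound by CREB. They are the only gene with a whole CRE in its window, both Pde8 genes, and Rgs2, which has 2 copies of the CRE core. Other genes also have several copies of the core, with 3 in Akap11 and 2 each in Gnb1, P2rx4 and Prkaca. The windows are RefSeq sequences of GRCm38.p6, from 250 bases before to 50 after a start site, and 46 of the 51 genes had at least 1. Pde7a, Akap2, Pde3a, Gnai2 and Rgs11 were not matched. The whole CRE was searched as TGACGTCA and its core as TGACG, on both strands, and each whole CRE also holds the core on both strands. Capitals mark every match. For a gene with several windows, a window with the most matches is shown. The Prkar1a window is chr11:109650612-109650911 on the plus strand, 1 of 6 for this gene, with the whole CRE starting at base 39 after the start site and a core 100 bases before it. The Pde8b window is chr13:95223001-95223300 on the minus strand, 1 of 5, with the core at base 39 after the start site. The Pde8a window is chr7:81213015-81213314 on the plus strand, with the core 84 bases before the start site. The Rgs2 window is chr1:144004100-144004399 on the minus strand, with cores 185 and 67 bases before the start site.
Prkar1a: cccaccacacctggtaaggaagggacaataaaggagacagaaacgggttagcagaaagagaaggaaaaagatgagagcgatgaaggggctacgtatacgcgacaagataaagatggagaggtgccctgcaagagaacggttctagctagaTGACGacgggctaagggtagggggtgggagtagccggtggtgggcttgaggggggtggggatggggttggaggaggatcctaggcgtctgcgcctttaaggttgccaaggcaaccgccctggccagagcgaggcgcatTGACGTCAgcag
Pde8b: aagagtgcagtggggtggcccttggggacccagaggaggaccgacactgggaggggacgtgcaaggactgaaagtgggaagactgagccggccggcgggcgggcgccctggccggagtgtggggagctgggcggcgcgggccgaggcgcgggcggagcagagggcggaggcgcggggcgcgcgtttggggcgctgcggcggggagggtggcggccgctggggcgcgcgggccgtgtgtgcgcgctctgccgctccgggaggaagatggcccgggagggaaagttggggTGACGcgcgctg
Pde8a: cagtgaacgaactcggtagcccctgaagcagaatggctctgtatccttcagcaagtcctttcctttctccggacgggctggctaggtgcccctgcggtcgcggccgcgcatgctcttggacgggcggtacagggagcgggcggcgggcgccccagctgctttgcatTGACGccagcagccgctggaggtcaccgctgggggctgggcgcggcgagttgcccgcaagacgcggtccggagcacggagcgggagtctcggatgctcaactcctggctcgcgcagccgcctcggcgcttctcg
Rgs2: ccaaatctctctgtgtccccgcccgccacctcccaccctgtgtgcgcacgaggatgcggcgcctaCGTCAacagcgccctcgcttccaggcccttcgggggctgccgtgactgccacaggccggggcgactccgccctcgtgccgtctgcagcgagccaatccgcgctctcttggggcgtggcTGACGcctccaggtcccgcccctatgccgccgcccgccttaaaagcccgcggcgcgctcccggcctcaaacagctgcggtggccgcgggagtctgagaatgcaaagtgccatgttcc
The whole CRE was found in 1.79% of all 32851 windows and in 2 of the 82 windows of the 46 genes. By gene, it was in 2.03% of all 27025 genes and in 1 of the 46 (2.17%). That gene was Prkar1a, which had a log2 difference of 0.26. The core was found in 20.8% of all windows and in 22 of the 82 windows of the 46 genes. By gene, it was in 23.05% of all genes and in 20 of the 46 (43.5%). A gene with more windows has more chances of a match, and the difference between these shares was not tested. Pde8b and Pde8a both have a core in a window and lay on opposite sides, as did Rgs2 (-0.37) and Prkar1a.

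Among the 7 receptors and receptor partners, 5 were on the positive and 2 on the negative side, with a median of 0.02. Ptger2 and Ptger4, the prostaglandin E2 receptors that couple to the stimulatory G protein, had differences of 0.12 (SE 0.25) and -0.16 (SE 0.18). Ednrb, the endothelin B receptor of the collecting duct, was at 0.00 (SE 0.15), and its interval ran from -0.35 to 0.35. Agtr2, the angiotensin II type 2 receptor, was at -0.08 (SE 0.19), and Agtrap, which binds the type 1 receptor and promotes its internalisation, at 0.17 (SE 0.24). Adcyap1r1, the receptor of the neuropeptide PACAP, was at 0.02 (SE 0.21). P2rx4 is an ATP-gated ion channel and no G protein-coupled receptor, and its difference after turning was 0.60 with a standard error of 0.76. With the signs as deposited it was 0.92. It reached 6.82 on the wide array, where its duplicate spots read 7.50 and 6.14, and lay between -1.05 and 0.47 on the other 11 arrays. Its levels were -0.37, 1.67 and -0.40 in water-restricted mice, against 0.64, -1.96 and 0.42 in control mice, so the 2 mice of that array had the most extreme levels. Without that array its difference was -0.15 (SE 0.16).

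Of the 5 G alpha genes, 3 were on the positive and 2 on the negative side, with a median of 0.00. Gnai1, an inhibitory subunit that lowers adenylyl cyclase activity, had levels of 0.21, 0.39 and -0.13 in water-restricted mice, against 0.14, -0.50 and -0.12 in control mice. The groups overlapped, and its difference was 0.31 (SE 0.21, 95% interval -0.17 to 0.80, limma adjusted p = 0.996), with 10 of 12 arrays positive. Without control mouse 2 it was 0.15. Gnai2, another inhibitory subunit, was at -0.04 (SE 0.23) and was negative on 10 of 12 arrays. Its value on the wide array was 1.59, and without that array its difference was -0.25 (SE 0.14). Gna13 had levels of 0.30, 0.18 and -0.15 in water-restricted mice, against -0.02, -0.13 and -0.17 in control mice. Its difference was 0.22 (SE 0.17), and its 2 clones gave 0.22 and 0.21. Gnaq, which activates phospholipase C beta, was at 0.00 (SE 0.22), with 1 clone at 0.19 and the other at -0.19. Gna14, of the same subfamily as Gnaq, was at -0.52 (SE 0.47). It read -3.49 where water-restricted mouse 1 met control mouse 2, with both spots low (-3.35 and -3.63), and the other 11 arrays ran no lower than -1.26.

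The beta and gamma subunits, which anchor and release the alpha subunits, were split between 3 positive and 2 negative genes with a median of 0.02. Gnb1 had levels of 0.02, 0.38 and -0.05 in water-restricted mice, against -0.03, -0.32 and -0.001 in control mice. Mouse 2 of each group stood apart from the others, which lay near 0. Its difference was 0.24 (SE 0.18), its 2 clones gave 0.22 and 0.25, and 11 of 12 arrays were positive. Gng12 had levels of -0.11, -0.17 and -0.05 in water-restricted mice, against 0.33, 0.02 and -0.02 in control mice. The groups did not overlap, but control mice 2 and 3 lay close to water-restricted mouse 3. Its difference was -0.22 (SE 0.16), and 11 of 12 arrays were negative. Gnb2 was at -0.15 (SE 0.20), Gng13, known from taste cells, at 0.07 (SE 0.18), and Gng3 at 0.02 (SE 0.20).

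All 7 RGS genes were on the negative side, with a median of -0.29, beside a median of 0.00 and 3344 negative among all 6786 genes. None passed the adjusted threshold, and all 7 intervals included 0. Rgs2, which acts mainly on the Gq class of alpha subunits, had levels of -0.27, -0.46 and 0.18 in water-restricted mice, against 0.32, 0.57 and -0.33 in control mice. Mouse 3 of each group lay on the other side from its group mates. The difference of Rgs2 was -0.37 (SE 0.27, 95% interval -0.98 to 0.24, limma adjusted p = 0.996), and its 2 clones gave -0.52 and -0.22. Without control mouse 2 it was -0.18. Rgs19, which binds the inhibitory alpha subunits, had levels of -0.54, -0.07 and 0.10 in water-restricted mice, against -0.18, 0.06 and 0.64 in control mice, with a difference of -0.34 (SE 0.25). Without control mouse 3 it was -0.11, and without water-restricted mouse 1 it was -0.16. Rgs3 had levels of -0.17, -0.32 and -0.01 in water-restricted mice, against 0.36, 0.18 and -0.05 in control mice. Its difference was -0.33 (SE 0.17), and without the wide array it was -0.15 (SE 0.21). Rgs10 had levels of -0.13, -0.14 and -0.17 in water-restricted mice, against 0.18, 0.48 and -0.22 in control mice, so the water-restricted mice lay within the spread of the control mice. Its difference was -0.29 (SE 0.20), with -0.58 from the first spot of its clone and -0.0053 from the second. Without control mouse 2 it was -0.13. Rgs17, Rgs12 and Rgs11 were at -0.08, -0.07 and -0.02, each with a standard error of 0.16 to 0.21. By mouse, the median level of the 7 genes was -0.13, -0.22 and -0.005 in water-restricted mice, against 0.17, 0.18 and -0.06 in control mice. Mouse 3 of each group was near 0, and the other 4 mice gave the split. The number on the negative side was 5 on the 6 arrays that carried water-restricted RNA in Alexa Fluor 546, 6 on the 6 that carried it in 647, and 4 in the 3 dye-swapped pairs alone. Without the wide array it stayed 7 with a median of -0.16, and without control mouse 2 it was 5 with a median of -0.13. Without water-restricted mouse 2 it was 5 as well. From the first spot of each clone it was 5, from the second 6, and with the median over clones 6. With the signs as deposited it was 1, with a median of 0.04. Following the RGS genes through these alternatives was not planned beforehand.

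The 3 adenylyl cyclases had differences of 0.26 (SE 0.26) for Adcy7, -0.14 (SE 0.20) for Adcy3 and -0.15 (SE 0.18) for Adcy9. Adcy7 is stimulated by G beta gamma in the presence of the stimulatory alpha subunit, and Adcy9 responds only weakly to forskolin. Adcy7 had levels of -0.40, 0.64 and 0.14 in water-restricted mice, against -0.07, -0.27 and -0.04 in control mice, and the water-restricted mice lay on both sides of the control mice. Adcy3, known as the cyclase of olfactory signalling, had levels of -0.36, 0.04 and 0.12 in water-restricted mice, against 0.10, -0.20 and 0.31 in control mice, and the groups overlapped throughout.

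Of the 9 phosphodiesterases, 5 were on the positive and 4 on the negative side, with a median of 0.01. Beside the Pde8 genes, Pde7a, another phosphodiesterase specific for cyclic AMP, had levels of -0.33, -0.12 and -0.005 in water-restricted mice, against 0.26, 0.32 and -0.13 in control mice. Control mouse 3 lay among the water-restricted mice. The difference of Pde7a was -0.30 (SE 0.18), and 11 of 12 arrays were negative. Pde1a, which calcium and calmodulin activate, was at -0.28 (SE 0.24) with 10 of 12 arrays negative, and Pde2a, which cyclic GMP stimulates, was at -0.12 (SE 0.18). Pde4b and Pde4d, of the family of cyclic AMP phosphodiesterases that rolipram inhibits, were at 0.01 (SE 0.16) and 0.03 (SE 0.19), and Pde3a, which cyclic GMP inhibits, was at 0.01 (SE 0.16). Their intervals ended within 0.5 of 0 on both sides. Pde4a, of the Pde4 family too, was at 0.07 (SE 0.34) and read -1.89 on the wide array. Without that array it was at 0.29 (SE 0.16). Pde4dip and Pde6d carry the stem in their names but encode the centrosome and Golgi protein myomegalin and a carrier of prenylated proteins. Pde4dip had levels of 0.45, -0.08 and 0.21 in water-restricted mice, against 0.01, -0.26 and -0.33 in control mice. Water-restricted mouse 2 lay within the control range. Its difference was 0.38 (SE 0.19, 95% interval -0.05 to 0.81, limma adjusted p = 0.996), with 11 of 12 arrays positive, and Pde6d was at 0.12 (SE 0.19).

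**Figure D3:**
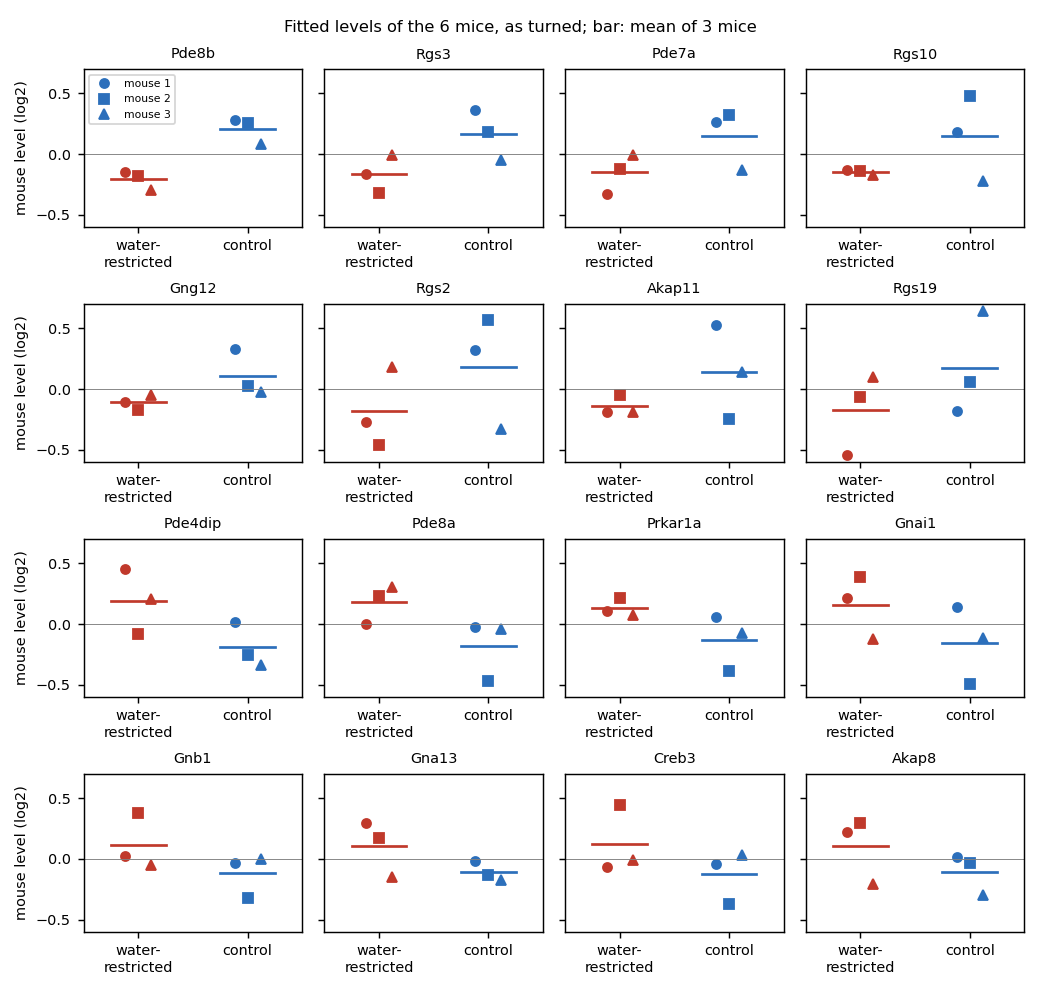
Fitted log2 level of each mouse (vertical axis) in water-restricted mice (left) and control mice (right) for the 8 genes with the smallest p on each side, with a bar at the mean of 3 mice and symbols for mouse number. The groups do not overlap for Pde8b, Gng12, Pde8a and Prkar1a, and overlap for the other 12 genes.

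Protein kinase A is a pair of regulatory subunits that hold catalytic subunits inactive until cyclic AMP binds. Prkar1a, a regulatory subunit, had levels of 0.11, 0.21 and 0.07 in water-restricted mice, against 0.06, -0.38 and -0.07 in control mice. The groups did not overlap, but control mouse 1 lay just under water-restricted mouse 3. Its difference was 0.26 (SE 0.17, 95% interval -0.12 to 0.64, limma adjusted p = 0.996), and its 2 clones gave 0.29 and 0.24. Without control mouse 2 it was 0.14. Prkar2b, another regulatory subunit, was at 0.01 (SE 0.17), and Prkaca, a catalytic subunit, at -0.04 (SE 0.17). Anchoring proteins, which hold the kinase near its substrates, were split between 3 positive and 4 negative genes with a median of -0.05. Akap11 had levels of -0.19, -0.05 and -0.19 in water-restricted mice, against 0.52, -0.24 and 0.14 in control mice, with a difference of -0.28 (SE 0.21). Without control mouse 1 it was -0.09. Control mouse 2 lay below all 3 water-restricted mice. Akap8, a nuclear anchoring protein, had levels of 0.22, 0.29 and -0.20 in water-restricted mice, against 0.01, -0.03 and -0.30 in control mice, with a difference of 0.21 (SE 0.19). Its 2 clones disagreed, at 0.43 and -0.01. Akap1, which anchors the kinase at mitochondria, was at 0.07, Akap9, of the centrosome and Golgi, at 0.02, Akap8l at -0.05 and Akap2 at -0.11. Akap17b was at -0.25 (SE 0.35), read -2.37 on the wide array, and was at -0.02 (SE 0.22) without it.

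The 3 genes with the CREB stem hold no classical CREB factor. Creb3 and Creb3l2 encode factors that are released from membranes by proteolysis, and Crebbp encodes the acetyltransferase that phosphorylated CREB recruits. Creb3 had levels of -0.06, 0.45 and -0.01 in water-restricted mice, against -0.04, -0.37 and 0.03 in control mice. Only mouse 2 of each group stood apart. Its difference was 0.25 (SE 0.20), and its 2 clones gave 0.36 and 0.14. Creb3l2 was at -0.03 (SE 0.21). Crebbp was at -0.16 (SE 0.20), and its 4 clones were all negative, from -0.40 to -0.02. Of the 11 genes with more than 1 clone, 6 had all clones on the same side (Creb3, Crebbp, Gna13, Gnb1, Prkar1a and Rgs2), and Akap8, Akap9, Gnai2, Gnaq and Rgs12 did not. The share over all genes with more than 1 clone was not computed.

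Repeated measurements were compared by sign, for the 51 genes beside all genes. In the 3 dye-swapped pairs, each of which measured the same 2 mice on 2 arrays, 26, 28 and 24 of the 51 genes (51%, 54.9% and 47.1%) had the same sign on both arrays after turning, beside 59.1%, 44.6% and 51.9% of all genes. When the 6 arrays of each orientation were fitted apart, 29 of the 51 genes (56.9%) had the same sign in both, beside 47.7% of all genes. When the first and the second spot of each clone were fitted apart, 35 genes (68.6%) agreed in sign, beside 76.3% of all genes. The wide array held the highest or the lowest array value of 17 of the 51 genes (33.3%), beside 39.6% of all genes. Without it 7 genes changed sign, among them P2rx4 and 6 genes that were under 0.2 in size (Adcyap1r1, Gnaq, Gng3, Pde3a, Pde4b and Prkar2b). At an unadjusted p under 0.05 there were then 2 genes, Pde8b (-0.49) and Pde4dip (0.41), which is 3.92% beside 6.0% of all genes, and none passed the adjusted threshold.

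Single mice were compared with their group mates against the error between arrays, which is technical. No gene of the 51 passed the F-test at an adjusted p under 0.05 (limma), beside 0.206% of all genes, and 8 of the 51 (15.7%) had an unadjusted p under 0.05, beside 12.8% of all genes. Rgs19 had the largest F, 7.18 (limma adjusted p = 0.232), followed by Rgs2 at 6.71, Akap11 at 5.42, Gnai1 at 4.77 and Adcy3 at 4.67. The levels of Rgs19 ran from -0.54 to 0.10 over the water-restricted mice and from -0.18 to 0.64 over the control mice. The highest level of a gene was in water-restricted mouse 2 for 13 genes and in control mouse 2 for 11 genes. The lowest level was in water-restricted mouse 1 for 14 genes and in control mouse 2 for 14 genes. The same counts were not made over all genes. Over all genes, levels spread most in control mouse 2 (SD 0.361) and water-restricted mouse 2 (SD 0.327), the mice of the wide array. In the other mice the SD over all genes was 0.235 to 0.280.

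The deposited signs may run by dye or may already have been turned by the authors, which the labels used here do not settle. Under the second reading the dye term of the fit takes the place of the difference between groups. The dye term passed an adjusted p under 0.05 for 3 of the 51 genes (5.88%), beside 6.62% of all genes: Adcy7 at 1.17 (SE 0.15, limma adjusted p = 0.00959), Pde2a at 0.54 (SE 0.078, limma adjusted p = 0.0113) and Adcy9 at 0.37 (SE 0.091, limma adjusted p = 0.0427). On the 6 arrays that carried water-restricted RNA in 546, Adcy7 read between 0.46 and 2.72, and on the 6 that carried it in 647, after turning, between -1.49 and 0.02. The orientations did not overlap. Pde2a read between 0.18 and 0.88 on the first 6 arrays and between -1.10 and -0.29 on the others, also without overlap. Both genes were picked by their dye term, which favours such a separation, and the share of all genes without overlap was not computed. Gna13 had a dye term of 0.36 and Pde8a of -0.27. Both passed without the wide array (limma adjusted p = 0.0299 for Gna13 and 0.0351 for Pde8a), which gave 5 genes in all (9.8%, beside 9.76% of all genes). The swapped pairs alone gave 0, beside 0.0147% of all genes. With the signs as deposited and mice as replicates, 2 of the 51 genes had an unadjusted p under 0.05, Adcy7 and Pde2a, beside 5.35% of all genes. Their differences were then 1.17 (limma adjusted p = 0.541) and 0.56 (limma adjusted p = 0.868). A dye effect of a probe and a difference between the groups cannot be told apart here for these genes.

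**Figure D4:**
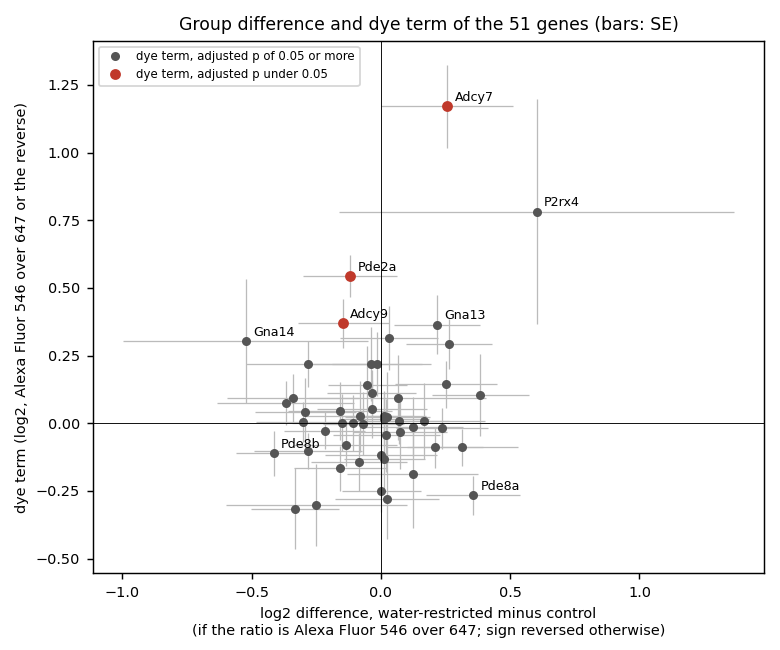
Log2 difference between groups (horizontal axis) and dye term (vertical axis, log2) for the 51 genes, with standard errors as bars and the genes with an adjusted p of the dye term under 0.05 in red. Adcy7 (1.17), Pde2a (0.54) and Adcy9 (0.37) are the red points, and their differences between groups are 0.26, -0.12 and -0.15.

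Other genes of the pathway outside the naming stems came from a list of 115 symbols, of which 33 were measured, 15 on the positive and 18 on the negative side with a median of -0.04. None passed the adjusted threshold, and 2, both negative, had an unadjusted p under 0.05 (6.06%, beside 4.97% of all genes, a share near that background). Avpr1a, the V1a vasopressin receptor, had levels of -0.40, -0.18 and -0.16 in water-restricted mice, against 0.20, 0.24 and 0.30 in control mice. The groups did not overlap, and its difference was -0.49 (SE 0.15, limma adjusted p = 0.771). Itpr2, a calcium release channel of the endoplasmic reticulum, was at -0.77 (SE 0.23, limma adjusted p = 0.771). Slc14a1, the urea transporter of the descending vasa recta and of red blood cells, was at -0.31 (SE 0.14). On the positive side the smallest p were those of Plcb3, a phospholipase C at 0.28 (SE 0.14), Fos, an immediate early gene at 0.27 (SE 0.16), and Nucb1, a calcium-binding protein at 0.32 (SE 0.24).

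Markers of several cell types were examined beside these genes. Of 14 principal cell markers 5 were measured, and all 5 were negative with a median of -0.59. Their mean level was -0.29, -0.21 and -0.38 in water-restricted mice, against 0.20, 0.24 and 0.44 in control mice. Of 17 proximal tubule markers 5 were measured, 4 of them positive, with a median of 1.05. Their mean level was 0.39, 0.43 and 0.54 in water-restricted mice, against 0.22, -0.92 and -0.66 in control mice. Of 5 erythroid markers 3 were measured: Hbb-b1 (-0.999), Slc4a1 (-0.74) and Alas2 (-0.24). Slc4a1 was also the only measured marker of intercalated cells, so these lists share that gene. Of 13 markers of interstitium and smooth muscle 9 were measured, 4 positive and 5 negative, with a median of -0.20. In that list 3 had an unadjusted p under 0.05, Cnn1 (0.61) and Dcn (0.55) on the positive side and Col3a1 (-0.56) on the negative side. So did 3 of the 5 principal cell markers, Fxyd4 (-1.10), Krt18 (-0.87) and Gata3 (-0.59). Among the 5 proximal tubule markers 3 did, Gatm (1.48), Miox (1.425) and Lrp2 (1.05), and among the 3 erythroid markers Hbb-b1 and Slc4a1. The share over all genes was 4.97%. These lists were chosen with earlier results of these data known, so their shares cannot be weighed against that value. No marker of the thick or thin limb was measured. None of these markers passed the adjusted threshold. The part of cell make-up in the values of Pde8b, Pde8a and the RGS genes was not tested.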

How the data were processed

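For each of 31200 spots on 12 arrays the authors deposited a log2 ratio, a base inferred from values as low as -15.2. Its numerator dye, background correction and normalization are unknown here. The number of mice, 3 per group, limits the precision, as does the number of arrays. Adjacent duplicate spots were averaged to 15600 clones. Of these, 9191 had 1 gene in the platform annotation, 254 had several and stay unnamed, and 6155 had none. The 9191 were averaged to 6786 genes, and 9085 clones were matched by Entrez identifier to RefSeq GRCm38.p6. The sign was turned on arrays that carried water-restricted RNA in Alexa Fluor 647.

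For each gene, weighted least squares with a dye term gave 6 mouse levels, arrays of a swapped pair weighing 0.5 each. Levels were compared 3 against 3 with limma 3.58.1 in R 4.3.3, adjusted by Benjamini-Hochberg over all genes at 0.05. Array error is shared by both groups, which makes this test somewhat strict. The F-test between group mates and the test of the dye term used limma on the 12 arrays. The fits were tested on simulated data.

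All 51 genes may be named. Levels by mouse are given for the 8 with the smallest p on each side, the 5 with the largest F, Adcy7 and P2rx4. Those of Pde2a and Adcy9, which passed the threshold of the dye term, are not given. Some genes (P2rx4) were named after their values were seen. The genes, lists and alternatives were chosen with earlier results of these data known. The labels name separate mice. Alternatives changed centring, scaling, weights, the dye term, the arrays used, the spots and clones used, the mouse number as a block and single mice. Centring used array medians over all clones, including those without a gene.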

Additional observations from a re-analysis of the deposited data

Results flagged for a closer look

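Single arrays that stood apart from the other 5 of the same dye orientation were looked for in 38 groups of 6 arrays, and 6 were found. Chance alone sets apart about 1 in 20 such groups if they are independent and their arrays have equal spread. Here the groups share arrays, the wide array has a larger spread, and P2rx4 was added after its values were seen. The count of 6 therefore cannot be set against that rate. With water-restricted RNA in Alexa Fluor 647, Pde4dip read -1.29 for water-restricted mouse 2 against control mouse 1, and 0.247 to 0.898 on the others. Gnai1 read -0.302 for water-restricted mouse 3 against control mouse 1 in the same orientation, and 0.386 to 0.766 on the others. The wide array (mouse 2 of each group, water-restricted RNA in 546) gave 3 of the 6. There Gnb1 read 0.894 (others -0.017 to 0.107), Creb3 read 1.27 (others -0.043 to 0.404) and P2rx4 read 6.82 (others -0.226 to 0.466). Pde7a read 0.274 for water-restricted mouse 3 against control mouse 3 in that orientation, and -0.537 to -0.337 on the others.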

How the results depend on the processing

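Of the 51 genes, 0 passed the adjusted threshold between groups under every alternative but the use of arrays as replicates, which gave 2 (Pde8b and Pde8a). The count at an unadjusted p under 0.05 ran from 0 to 5 elsewhere, with 5 (9.8%) in the swapped pairs beside 11.4% of all genes, and was 16 (31.4%) with arrays as replicates beside 20.7% of all genes. The sign of the difference stayed the same for 50 of 51 genes under median centring, 47 under scale normalization and 19 with the signs as deposited. With the signs as deposited 32 of the 51 changed side. Among the 16 genes with the smallest p on each side (8 each) and P2rx4, these were Pde8a (-0.262), Gnai1 (-0.084), Gnb1 (-0.0032), Akap8 (-0.084), Pde7a (0.035), Rgs10 (0.062), Rgs2 (0.060) and Rgs19 (0.039). On the arrays with water-restricted RNA in 647 alone 11 of the 51 changed side, among the same 17 genes Prkar1a (-0.061), Gna13 (-0.151), Rgs3 (0.023) and P2rx4 (-0.381), and in the swapped pairs alone 12 did, among these Rgs10 (0.039) and P2rx4 (-0.203). Larger moves among the other genes with the signs as deposited included Pde2a (0.56), Gna14 (0.39) and Adcy9 (0.35), and on the 647 arrays Adcy7 (-0.82). Without the wide array, P2rx4 was at -0.153, and leaving out each mouse in turn moved it between -0.230 and 1.07. The dye term passed for 5 genes without that array and for 0 in the swapped pairs, which hold fewer arrays. The cause of the other changes was not tested. The labels number the mice in both groups. Deviations of same-numbered mice from their group means correlated at -0.015, -0.542 and -0.114, and those of the other pairs at -0.497 to 0.497. Same-numbered mice shared 1 array, whose error enters their levels with opposite signs. These correlations therefore cannot settle whether the numbers stand for a pairing. With the mouse number as a replicate block, 0 of the 51 genes passed the adjusted threshold, 1 had an unadjusted p under 0.05, and 260 of all genes did. Signal over background could not be examined.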
